A study of Rattus norvegicus with 12 samples.

Results

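The genes described here are 38 listed members of fatty acid oxidation and of the target genes of PPAR-alpha in rat liver, chosen by name and grouped by role. Of these, 37 were matched to an array probe set assigned to that gene alone, out of 14217 genes with such a probe set, and 36 were bright enough to be tested. Each gene was read from 1 probe set, the one with the highest mean over 12 arrays. Acaa1a, the peroxisomal thiolase, has no probe set of its own here, and the probe set of the thioesterase gene Acot1 was too dim to test.

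The series measured liver RNA of adult male Sprague-Dawley rats, 10 weeks old, in 4 groups of 3 rats. Treated rats were gavaged every 24 h over 72 h with a triazole fungicide. The daily dose was 300 mg/kg/day for both myclobutanil and propiconazole and 175 mg/kg/day for triadimefon. The labels do not state what was given to the controls. Each rat's liver RNA was put on its own Affymetrix Rat Genome 230 2.0 array without pooling, so p-values measure the spread between animals. Each compound carries a triazole ring. Triadimefon also has a phenoxy ether and a ketone, propiconazole has a dioxolane ring, and myclobutanil has a butyl chain with a nitrile.

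PPAR-alpha is a nuclear receptor that is activated by fatty acids and by fibrate drugs. It pairs with the retinoid X receptor, binds direct repeats of a short DNA element near its target genes, and drives their transcription during fasting. In liver its targets carry fatty acids into mitochondria and peroxisomes, shorten them by beta-oxidation, hydroxylate their omega end and turn the products into ketone bodies. Rodent liver is known for a strong response of the peroxisomal and Cyp4a genes to such activators.

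Levels are log-like scores as the authors deposited them, quantile normalized here. Their log base is not given in the sources used here, so a difference is in these log-like units and is no fold change, and the level of one gene cannot be set against that of another. Differences are given ± SE from limma, a linear model fitted to the 12 arrays over 21729 probe sets, with p-values adjusted by the Benjamini-Hochberg method over all of them, and an adjusted p under 0.05 was called. The array of myclobutanil replicate 01 stood apart: its deposited median was 0.157, while the others had 0.0182 to 0.0552, and it correlated with them at a median r of 0.920, while theirs were 0.950 to 0.975. RNA quality was read from the GAPDH 3' minus 5' difference, which is lower in more intact RNA. It was 0.659 ± 0.252 (SD, n = 3) for control, 0.434 ± 0.106 for propiconazole, 0.587 ± 0.212 for triadimefon and 0.624 ± 0.128 for myclobutanil. The same difference for beta-actin was lowest with propiconazole too, at 0.636 ± 0.0925, but highest with triadimefon, at 0.838 ± 0.200, with 0.807 ± 0.145 for myclobutanil and 0.682 ± 0.202 for control. The liver markers Alb, Ttr, Apoa1, Serpina1, Fgb and Hnf4a were bright on the arrays, with means of 2.44 to 4.03. In whole liver, fewer cells of a type and less RNA per cell cannot be told apart. The members had a median within-group SD of 0.167, against 0.0786 over all tested probe sets, a comparison that was not matched for brightness.

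Over the 36 tested members, 1 was called in 1 comparison: Cpt2, which was higher with propiconazole. With propiconazole 1 of 36 members was called against 1.43% of all probe sets, with myclobutanil 0 against 1.82%, with triadimefon 0 against 0.769%, and between myclobutanil and propiconazole 0 against 0%. A limma F test for any difference among the 4 groups called 0 members against 1.07% of probe sets, the lowest adjusted p being 0.113. At an unadjusted p under 0.05 the F test passed 11 of 36 members, a share of 30.6%, against 15.6% of all probe sets. These 11 were Cpt2, Acadm, Hadh, Eci1, Eci2, Pex11a, Cyp4a1, Acot2, Plin2, Vnn1 and Angptl4. Members that did not pass the adjusted test are given by their values, with no direction claimed.

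With propiconazole, 25 of the 36 differences from control lay above 0 and 11 below, with a median of 0.10 against a median of -0.01 over all probe sets. At an unadjusted p under 0.05 there were 7 members higher (19.4%, against 7.73% of all probe sets) and 1 lower (2.78%, against 6.78%). All 3 treated arrays lay above all 3 control arrays in 10 members (27.8%, against 12.1%) and below them in 4 (11.1%, against 15.7%). With median centring in place of quantile normalization the split of 25 above and 11 below 0 was the same, and without further normalization it was 24 and 12. With the GAPDH 3' minus 5' difference of each array as a covariate it was 22 and 14. In that fit 7 members were higher at an unadjusted p under 0.05 (19.4%, against 7.57% of all probe sets). Another 3 were lower, against 6.52% of all probe sets, and 0 were called.

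With myclobutanil, 15 differences lay above 0 and 21 below, with a median of -0.04 against -0.01 over all probe sets. This split moved with the scaling, to 10 above and 26 below with median centring and to 12 and 24 without further normalization. At an unadjusted p under 0.05 there were 4 members higher (11.1%, against 9.2% of all probe sets) and 4 lower (11.1%, against 11.9%), and the groups did not overlap in 4 higher (11.1%, against 10.2%) and 3 lower (8.33%, against 13.1%). In this fit these shares are near those of all probe sets. With the GAPDH covariate the unadjusted p was under 0.05 for 4 members higher (11.1%, against 9.94% of all probe sets). It was under 0.05 for 8 of 36 members lower, against 13.7% of all probe sets. The 8 were 4 beta-oxidation, 2 electron transfer and 2 fatty acid handling genes, and 0 members were called. Without myclobutanil replicate 01 the unadjusted p was under 0.05 for 6 members higher (16.7%, against 11.6% of all probe sets in that fit) and 5 lower (13.9%, against 12.4%). The remaining 2 arrays did not overlap the controls in 9 members higher (25.0%, against 18.5%) and 4 lower (11.1%, against 22.2%).

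With triadimefon, 14 differences lay above 0 and 22 below, with a median of -0.05 against -0.01 over all probe sets. At an unadjusted p under 0.05 there were 0 members higher (against 7.02% of all probe sets) and 2 lower, Cyp4a1 and Bdh1 (5.56%, against 6.42%). The groups did not overlap in 2 higher (5.56%, against 12.5%) and 9 lower (25.0%, against 15.8%). The 9 lower members were Acadm, Acadl, Etfdh, Hsd17b4, Eci2, Cyp4a1, Cyp4a3, Bdh1 and Fabp1, with differences between -0.40 and -0.08. The 3 comparisons share their control arrays, so their splits are set side by side only.

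**Figure D1:**
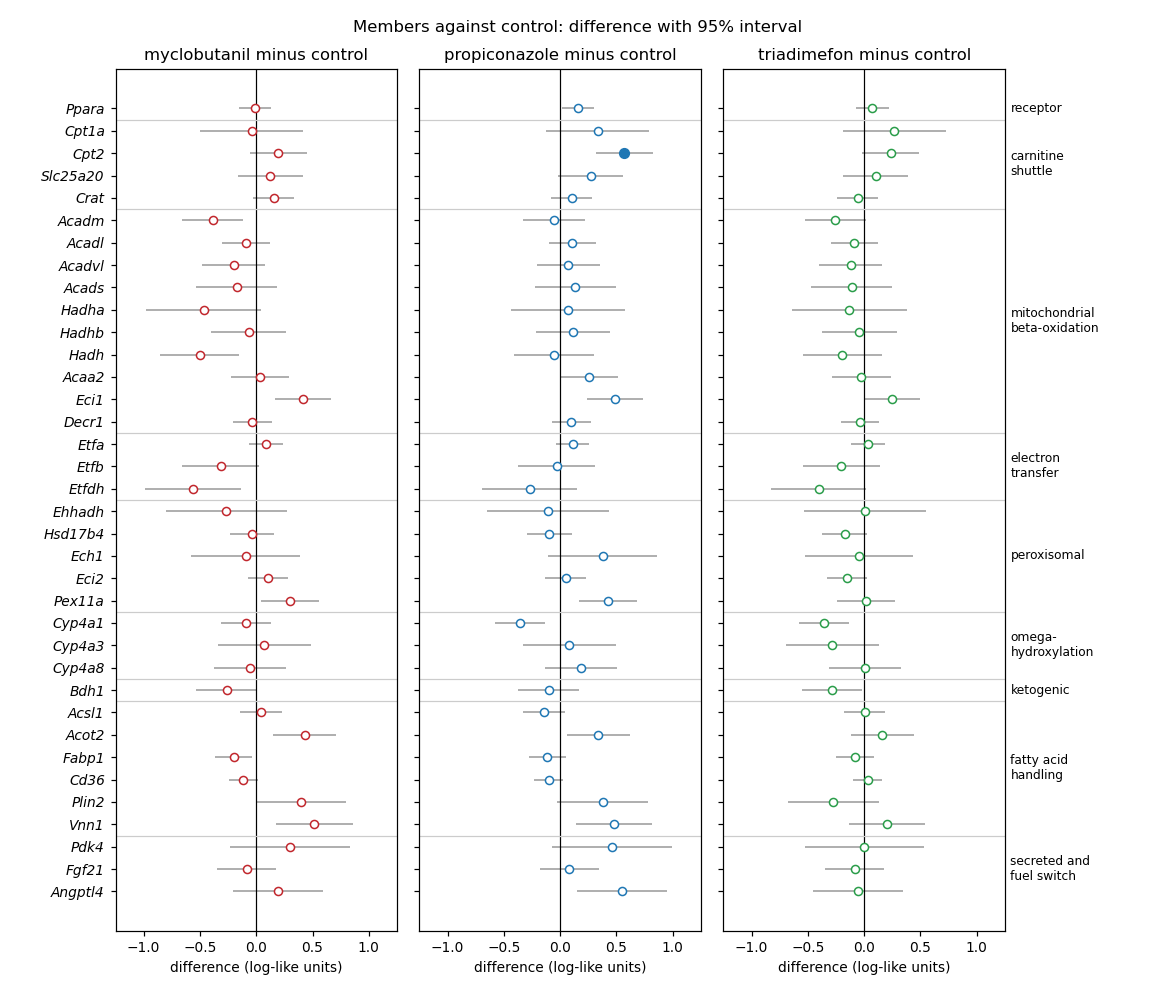
Difference from control (log-like units, horizontal axis) for each of the 36 tested members, ordered by role from top to bottom, in 3 panels for myclobutanil, propiconazole and triadimefon; circles are limma estimates, lines are 95% intervals, and a filled circle marks an adjusted p under 0.05. The one filled circle is Cpt2 with propiconazole, at 0.57; the 10 mitochondrial beta-oxidation genes lie mostly left of 0 with myclobutanil and right of 0 with propiconazole.

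The spread within groups was uneven among the members. The median SD over the 36 members was 0.109 in control and 0.111 in triadimefon, and 0.174 in propiconazole and 0.217 in myclobutanil. The array of propiconazole replicate 02 gave the highest of all 12 levels in 14 members (38.9%), while it was the highest array for 7.86% of all tested probe sets. The arrays of myclobutanil replicates 01 and 03 were each the lowest of 12 in 9 members (25.0%), against 32.2% and 13.3% of all probe sets.

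Known PPAR-alpha response elements are direct repeats with a single base between the copies, so the 250 bases before each gene's start were searched on both strands. RefSeq start sites of the GRCr8 assembly were matched for 32 of the 38 members. The search for 2 exact copies of AGGTCA with 1 base between them matched 0 of 32 members and 0.0508% of 33469 such windows of all genes. With any base allowed in the fourth place of each copy (AGGNCA), 1 member matched, Fabp1, against 0.368% of all windows. A lone AGGTCA, which the match in Fabp1 also holds, was found in 5 members (15.6%) against 14.1% of all windows, and the GC box GGGCGG, which is common at start sites, in 21 (65.6%) against 30.5%. These letters are a description of short windows and show no binding. The windows of Fabp1, the only member with a repeat, and of Cpt2, the only called member, are printed 5′ to 3′ along the gene, with the repeat of Fabp1 (on the opposite strand, at positions -77 to -65 from the start) and the GC boxes of Cpt2 in capitals.
Fabp1, chr4:104749090-104749339, plus strand: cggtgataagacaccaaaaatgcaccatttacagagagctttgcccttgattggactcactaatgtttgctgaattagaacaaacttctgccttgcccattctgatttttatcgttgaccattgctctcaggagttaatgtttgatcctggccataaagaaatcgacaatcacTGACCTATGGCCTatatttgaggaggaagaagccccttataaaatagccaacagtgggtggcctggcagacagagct
Cpt2, chr5:127910819-127911068, minus strand: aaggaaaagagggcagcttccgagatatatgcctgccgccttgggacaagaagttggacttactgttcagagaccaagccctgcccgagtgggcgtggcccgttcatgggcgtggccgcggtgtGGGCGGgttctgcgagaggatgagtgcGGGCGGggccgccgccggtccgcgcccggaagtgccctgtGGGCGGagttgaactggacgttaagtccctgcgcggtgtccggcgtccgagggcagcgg
The window of Cpt2 holds 3 GC boxes and no AGGTCA.

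Ppara itself, the gene of the receptor, was called in no comparison. Its control arrays 01 to 03 read 0.02, -0.08 and -0.08, the myclobutanil arrays -0.10, -0.08 and -0.01, the propiconazole arrays 0.02, 0.21 and 0.12, and the triadimefon arrays -0.08, -0.01 and 0.17. The treated arrays overlapped the controls with each compound. The differences from control were -0.01 ± 0.07, 0.16 ± 0.07 and 0.07 ± 0.07 (limma adjusted p = 0.921, 0.285 and 0.671).

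The carnitine shuttle carries long-chain fatty acids across the mitochondrial membranes. With propiconazole all 4 of its genes lay above control, at 0.10 to 0.57, with 1 called. Cpt2, the carnitine palmitoyltransferase of the inner membrane, read 1.09, 1.12 and 1.03 on the control arrays and 1.70, 1.84 and 1.41 on the propiconazole arrays. It read 1.08, 1.45 and 1.30 with myclobutanil and 1.27, 1.35 and 1.34 with triadimefon. All propiconazole and all triadimefon arrays lay above all controls, while myclobutanil replicate 01 lay among the controls. Cpt2 rose by 0.57 ± 0.12 with propiconazole (limma adjusted p = 0.0388, n = 3 arrays per group), and stood at 0.20 ± 0.12 with myclobutanil and 0.24 ± 0.12 with triadimefon (limma adjusted p = 0.351 and 0.407).

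This call was close to the threshold. It did not hold when control replicate 01, 02 or 03 was left out (limma adjusted p = 0.110, 0.122 and 0.163) or propiconazole replicate 01 or 02 (0.139 and 0.0940), and it held without propiconazole replicate 03 (0.0367), the difference lying between 0.47 and 0.69 in these 6 fits. The limma adjusted p was 0.0549 with median centring, 0.0541 when dim probe sets were kept and 0.0562 with the replicate number as a block. It was 0.0970 (difference 0.52) with the GAPDH 3' minus 5' difference of each array as a covariate. The call held without further normalization (0.0304), with a 50% filter (0.0290) and without the intensity trend (0.0308). It also held with a weight for each array (0.00750) and from the 6 compared arrays (0.0461).

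Cpt1a, the outer membrane palmitoyltransferase that sets the pace of fatty acid entry, read 1.74, 2.25 and 2.08 in control. It read 1.65, 1.87 and 2.43 with myclobutanil, 2.54, 2.39 and 2.14 with propiconazole, and 2.58, 2.20 and 2.09 with triadimefon. Every treated group overlapped the controls, which were themselves spread by 0.26 (SD). The differences were -0.04, 0.33 and 0.27, each ± 0.21 (limma adjusted p = 0.932, 0.506 and 0.621). On a second, dimmer probe set of Cpt1a the propiconazole arrays read 1.24, 1.80 and 1.10, all above the controls of 1.01, 0.65 and 0.79, with a difference of 0.56 ± 0.18 (limma adjusted p = 0.184). Slc25a20, the carnitine-acylcarnitine exchanger, and Crat, the carnitine acetyltransferase, lay between -0.06 and 0.27 from control with the compounds, and neither was called.

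**Figure D2:**
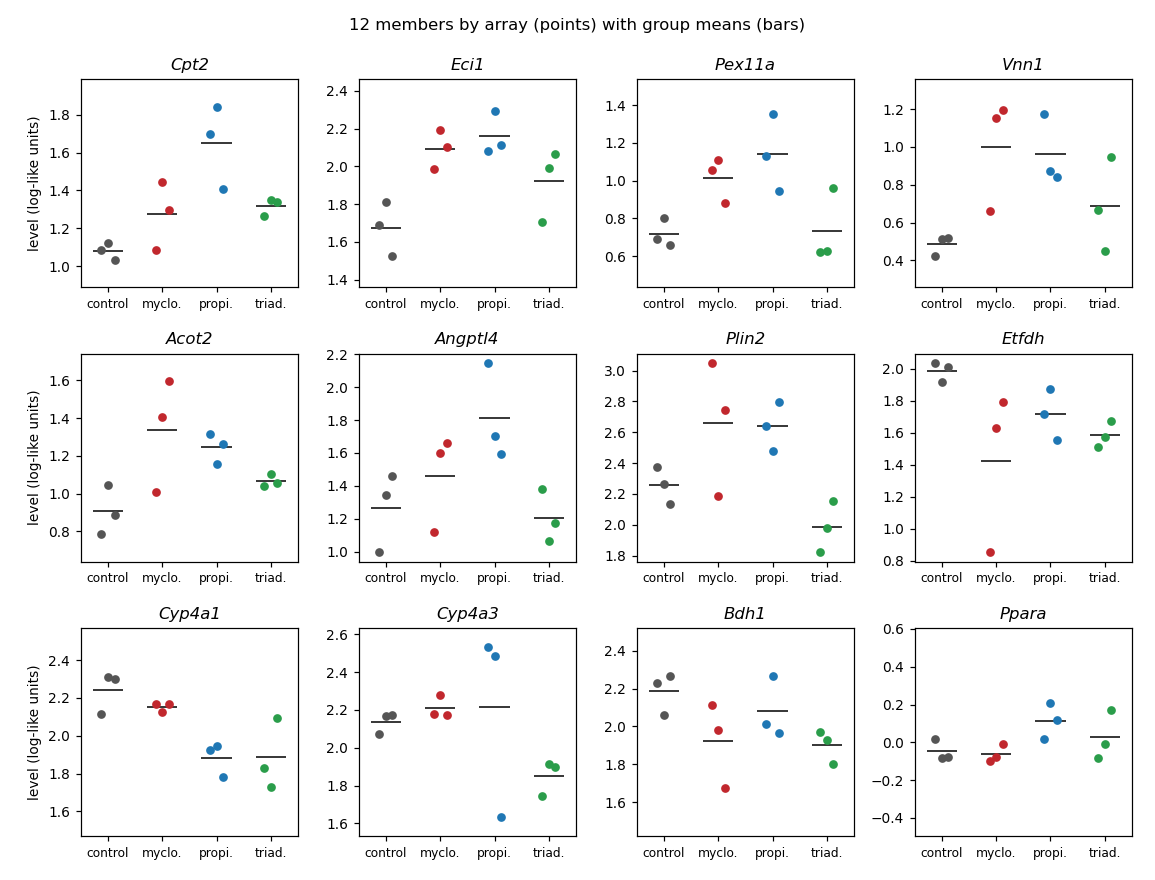
Level of 12 members (log-like units, vertical axes that differ between panels) on each array, grouped by control, myclobutanil, propiconazole and triadimefon on the horizontal axis; each point is 1 rat and each bar a group mean. In Cpt2 the 3 propiconazole points, from 1.41 to 1.84, lie above the 3 control points, from 1.03 to 1.12; in Etfdh all treated points lie below the controls.

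Mitochondrial beta-oxidation removes a pair of carbons per turn, through acyl-CoA dehydrogenases, a hydratase, a hydroxyacyl dehydrogenase and a thiolase. Of its 10 genes none was called. With myclobutanil 8 of 10 lay below control (9 with median centring or without further normalization), with propiconazole 8 lay above it, and with triadimefon 9 lay below it. With the GAPDH covariate the split for propiconazole became 5 above and 5 below 0. In 3 of the 4 groups the array with the highest mean of these 10 genes was also the array with the lowest GAPDH 3' minus 5' difference, namely control 01, myclobutanil 02 and propiconazole 02. With the GAPDH covariate 0 members were called in any of the 4 comparisons. How far RNA quality itself set the level of a single member was not tested.

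Among these 10 genes, Hadh, Hadha and Acadm stood lowest with myclobutanil and were chosen after their values were seen. Hadh, the short-chain hydroxyacyl dehydrogenase, read 2.92, 2.69 and 2.73 in control and 1.89, 2.59 and 2.35 with myclobutanil, a difference of -0.50 ± 0.16 (limma adjusted p = 0.118). Acadm, the medium-chain dehydrogenase, read 2.83, 2.74 and 2.65 in control and 2.42, 2.53 and 2.11 with myclobutanil, a difference of -0.39 ± 0.12 (limma adjusted p = 0.119). In both genes the myclobutanil arrays lay below all controls. With propiconazole both stood at -0.05 and overlapped the controls. A second, dimmer probe set of Hadh stood at -0.17 ± 0.09 with myclobutanil (limma adjusted p = 0.317), and its myclobutanil arrays overlapped the controls.

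Hadha, the alpha subunit of the trifunctional protein of long-chain oxidation, read 1.93, 1.57 and 1.56 in control. Its myclobutanil arrays read 0.67, 1.65 and 1.34, with replicate 01 far the lowest and a difference of -0.47 ± 0.23 (limma adjusted p = 0.274). Hadhb encodes the beta subunit and read 1.98, 2.02 and 1.97 in control and 1.52, 2.04 and 2.21 with myclobutanil, again with replicate 01 lowest and a difference of -0.07 ± 0.15 (limma adjusted p = 0.815). The genes start head to head, with 300 bases between their RefSeq starts, so they share the stretch printed here along Hadha, in which capitals mark a GC box on the opposite strand.
Hadha, chr6:31907551-31907800, plus strand: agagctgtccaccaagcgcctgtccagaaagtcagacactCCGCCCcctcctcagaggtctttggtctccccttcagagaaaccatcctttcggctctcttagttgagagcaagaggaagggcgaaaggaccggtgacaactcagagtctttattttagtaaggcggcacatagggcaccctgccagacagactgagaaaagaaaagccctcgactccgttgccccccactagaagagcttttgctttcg
The difference of Hadha with propiconazole was 0.07 and that of Hadhb 0.11, and neither was called. Further, much dimmer probe sets of Hadha stood at 0.01 ± 0.03 and 0.03 ± 0.03 with myclobutanil (limma adjusted p = 0.839 and 0.700).

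Eci1, the mitochondrial isomerase that moves double bonds of unsaturated fatty acids, lay above control with each compound. It read 1.69, 1.81 and 1.53 in control, 1.99, 2.19 and 2.10 with myclobutanil, 2.08, 2.29 and 2.11 with propiconazole, and 1.71, 1.99 and 2.07 with triadimefon. All myclobutanil and propiconazole arrays lay above all controls, while triadimefon overlapped them. The differences were 0.42, 0.49 and 0.25, each ± 0.11 (limma adjusted p = 0.0836, 0.0646 and 0.380), so Eci1 missed the threshold with each compound in this fit. With a weight for each array it was called with myclobutanil and propiconazole (limma adjusted p = 0.0161 and 0.0301). That fit called 1668 and 1313 of all probe sets. With propiconazole it was also called without the intensity trend (0.0466) and from the 6 compared arrays (0.0482). No other setting called it.

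The other 5 genes are Acadl, Acadvl and Acads, dehydrogenases for long, very long and short chains, Acaa2, the thiolase, and Decr1, the dienoyl reductase. They stood between -0.20 and 0.04 with myclobutanil, between 0.07 and 0.25 with propiconazole and between -0.12 and -0.02 with triadimefon. A second, dimmer probe set of Acaa2 stood at 0.30, 0.24 and 0.16, each ± 0.12 (limma adjusted p = 0.182, 0.391 and 0.619).

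Electrons from the dehydrogenases pass through the electron transfer flavoprotein, made of Etfa and Etfb, to its ubiquinone oxidoreductase Etfdh. Etfdh was the only member whose arrays lay below all controls with each of the 3 compounds (1 of 36, against 4.45% of all probe sets), and 0 members lay above them with all of the compounds (against 3.97%). It read 2.03, 1.92 and 2.01 in control, 0.86, 1.63 and 1.79 with myclobutanil, 1.72, 1.87 and 1.55 with propiconazole, and 1.51, 1.57 and 1.67 with triadimefon. The lowest value came from myclobutanil replicate 01. The differences were -0.56, -0.27 and -0.40, each ± 0.19 (limma adjusted p = 0.139, 0.567 and 0.401), and none was called. The window before its start is shown as that of this one member, with a GC box in capitals at its end, next to the start.
Etfdh, chr2:167060759-167061008, minus strand: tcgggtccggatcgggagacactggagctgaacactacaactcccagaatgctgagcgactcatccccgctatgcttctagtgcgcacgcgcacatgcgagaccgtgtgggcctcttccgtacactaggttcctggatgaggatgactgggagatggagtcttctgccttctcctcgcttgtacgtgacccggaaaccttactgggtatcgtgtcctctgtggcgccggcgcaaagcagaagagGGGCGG
Etfa lay within 0.04 to 0.11 of control and Etfb at -0.32, -0.03 and -0.20 with myclobutanil, propiconazole and triadimefon, and neither was called.

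Peroxisomes shorten very long fatty acids by a beta-oxidation of their own, and their number and enzymes are the best-known readout of PPAR-alpha activators in rodents. None of the 5 tested peroxisomal members was called with any compound. Ehhadh, the bifunctional hydratase and dehydrogenase, read 2.09, 1.66 and 1.60 in control, 1.63, 1.94 and 0.99 with myclobutanil, 1.63, 2.02 and 1.38 with propiconazole, and 1.52, 2.03 and 1.82 with triadimefon. The groups overlapped throughout, and the differences were -0.26, -0.11 and 0.01, each ± 0.25 (limma adjusted p = 0.550, 0.896 and 0.994). The 95% interval with propiconazole ran from -0.65 to 0.43.

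Pex11a, which promotes peroxisome division and was picked after its values were seen, read 0.69, 0.80 and 0.66 in control. It read 1.06, 1.11 and 0.88 with myclobutanil, 1.13, 1.35 and 0.94 with propiconazole, and 0.62, 0.63 and 0.96 with triadimefon. The myclobutanil and propiconazole arrays lay above all controls, and the triadimefon arrays overlapped them. The differences were 0.30, 0.43 and 0.02, each ± 0.12 (limma adjusted p = 0.184, 0.118 and 0.970). A second, dimmer probe set of Pex11a stood at 0.13, 0.29 and -0.01, each ± 0.14 (limma adjusted p = 0.588, 0.376 and 0.987). There only the propiconazole arrays lay above all controls.

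The probe set that reads Acaa1a is assigned to both Acaa1b and Acaa1a, thiolases that it cannot tell apart. It read 2.02, 2.18 and 2.28 in control, 2.70, 2.62 and 2.06 with myclobutanil, 2.44, 2.61 and 2.40 with propiconazole, and 2.35, 2.22 and 2.01 with triadimefon. The propiconazole arrays lay above all controls and the others overlapped them. The differences were 0.30, 0.32 and 0.04, each ± 0.16 (limma adjusted p = 0.296, 0.376 and 0.954). Hsd17b4, the second multifunctional enzyme, Ech1, a dienoyl isomerase, and Eci2, an isomerase, lay between -0.17 and 0.38 from control and were not called. A probe set assigned to both Eci3 and Eci2 stood at -0.38, -0.11 and -0.17 with myclobutanil, propiconazole and triadimefon, each ± 0.15. All of its treated groups overlapped the controls (limma adjusted p = 0.187, 0.797 and 0.670).

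The Cyp4a enzymes add a hydroxyl group to the omega end of fatty acids. They are close paralogs, so each probe set may also read a relative, and the values are uncertain in that respect. Cyp4a1 read 2.11, 2.31 and 2.30 in control, 2.17, 2.12 and 2.17 with myclobutanil, 1.92, 1.95 and 1.78 with propiconazole, and 1.83, 1.73 and 2.10 with triadimefon. Propiconazole and triadimefon arrays lay below all controls. The differences were -0.09, -0.36 and -0.36, each ± 0.10 (limma adjusted p = 0.628, 0.121 and 0.152), so none was called, and the 95% interval with propiconazole ran from -0.58 to -0.14.

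Cyp4a3 read 2.07, 2.17 and 2.17 in control and 2.18, 2.28 and 2.17 with myclobutanil. Its propiconazole arrays split, at 2.53, 2.49 and 1.64, and its triadimefon arrays, at 1.74, 1.92 and 1.90, lay below all controls. The SD within propiconazole was 0.505 against 0.057 in control. The differences were 0.07, 0.08 and -0.28, each ± 0.19 (limma adjusted p = 0.845, 0.897 and 0.560). On a probe set assigned to both Cyp4a3 and Cyp4a2 every treated group overlapped the controls, which read 1.96, 2.29 and 2.35. There the propiconazole arrays read 2.27, 2.11 and 1.92 and the triadimefon arrays 2.25, 2.08 and 1.99. Its differences were 0.02, -0.10 and -0.09, each ± 0.13 (limma adjusted p = 0.889, 0.786 and 0.821). Cyp4a8 read 0.72, 0.34 and 0.18 in control, 0.26, 0.62 and 0.19 with myclobutanil, 0.80, 0.45 and 0.54 with propiconazole, and 0.40, 0.36 and 0.50 with triadimefon, with all groups overlapping. Its differences were -0.06, 0.18 and 0.00, each ± 0.14 (limma adjusted p = 0.842, 0.620 and 0.995).

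**Figure D3:**
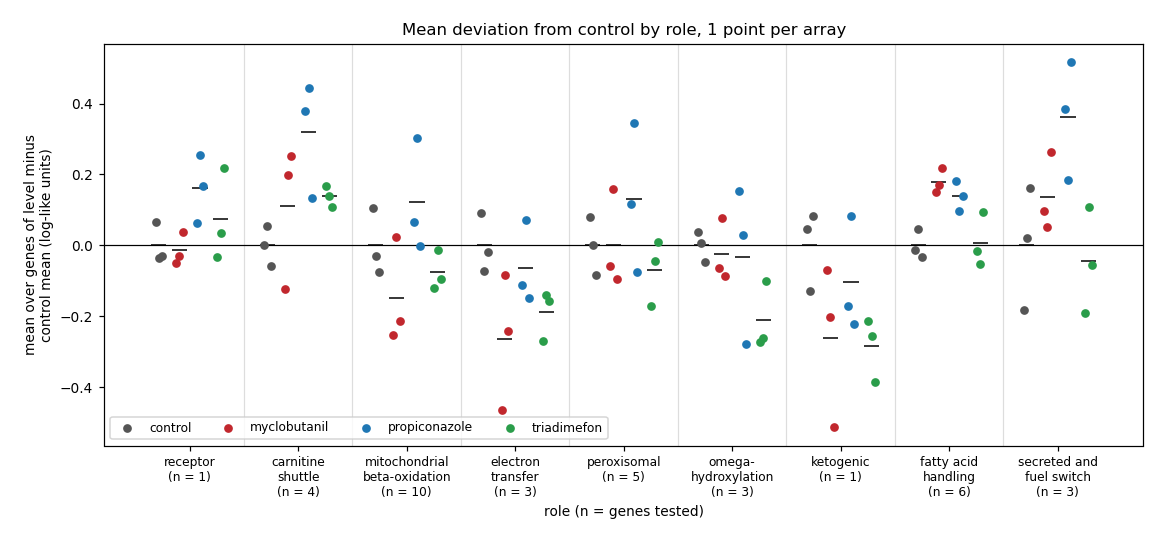
Mean over the genes of each role of the level minus the control mean (log-like units, vertical axis), 1 point per array and a bar for each group mean, with roles and their numbers of tested genes on the horizontal axis. The carnitine shuttle lies between 0.13 and 0.44 on the propiconazole arrays, and the 10 beta-oxidation genes between -0.25 and 0.02 on the myclobutanil arrays.

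Ketone bodies are made in liver mitochondria from the acetyl-CoA of beta-oxidation, and Bdh1 interconverts the main pair of them. Bdh1 read 2.23, 2.06 and 2.27 in control, 2.11, 1.98 and 1.67 with myclobutanil, 2.02, 2.27 and 1.96 with propiconazole, and 1.97, 1.93 and 1.80 with triadimefon. The triadimefon arrays lay below all controls and the others overlapped them. The differences were -0.26, -0.10 and -0.29, each ± 0.12 (limma adjusted p = 0.247, 0.761 and 0.341). A second, dimmer probe set of Bdh1 read 1.93, 1.54 and 1.68 in control and 0.96, 1.27 and 0.77 with myclobutanil, a difference of -0.71 ± 0.16 that passed the test (limma adjusted p = 0.0496). With triadimefon that probe set stood at -0.54 ± 0.16 (limma adjusted p = 0.168), again below all controls.

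Among the genes that bind, activate and store fatty acids, values for Acot2 and Vnn1 are given because they stood high, and were chosen after they were seen. Acot2, a mitochondrial acyl-CoA thioesterase, read 0.78, 1.05 and 0.89 in control, 1.01, 1.41 and 1.60 with myclobutanil and 1.31, 1.16 and 1.26 with propiconazole. Its differences were 0.43 ± 0.13 and 0.34 ± 0.13 (limma adjusted p = 0.102 and 0.245), and only the propiconazole arrays cleared all controls. The second probe set of Acot2 was called with myclobutanil, at 0.50 ± 0.09 (limma adjusted p = 0.0238), and so was a probe set shared by Acot2 and Acot1, at 0.33 ± 0.07 (limma adjusted p = 0.0356). On both of these all myclobutanil arrays lay above all controls.

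Acot1, the cytosolic relative, was dim, at -0.42, -0.46 and -0.39 in control and -0.28, -0.24 and -0.18 with myclobutanil. It was not tested here; when no probe set was left out as dim, limma called it with myclobutanil. The Acot genes are close paralogs, so these probe sets may read each other's transcripts.

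Vnn1, a pantetheinase that is a known PPAR-alpha target, read 0.42, 0.51 and 0.52 in control. It read 0.66, 1.15 and 1.19 with myclobutanil, 1.17, 0.87 and 0.84 with propiconazole, and 0.67, 0.45 and 0.95 with triadimefon. The arrays of myclobutanil and of propiconazole lay above all controls. The differences were 0.52, 0.48 and 0.20, each ± 0.16 (limma adjusted p = 0.107, 0.176 and 0.615). Without myclobutanil replicate 01, Vnn1 with myclobutanil stood at 0.69 (limma adjusted p = 0.0298) and Acot2 at 0.60 (limma adjusted p = 0.0141), both past the threshold. That fit called 670 of all probe sets, against 395 with all arrays.

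Plin2, the lipid droplet coat protein, read 2.38, 2.27 and 2.14 in control, 3.05, 2.19 and 2.74 with myclobutanil, 2.64, 2.48 and 2.80 with propiconazole, and 1.82, 1.98 and 2.15 with triadimefon. The propiconazole arrays lay above all controls, and the triadimefon arrays overlapped the lowest control. The differences were 0.40, 0.38 and -0.27, each ± 0.18 (limma adjusted p = 0.239, 0.379 and 0.563). Without myclobutanil replicate 02 its difference with myclobutanil was 0.64 (limma adjusted p = 0.0323), in a fit that called 924 of all probe sets, against 395 with all arrays. On a second, dimmer probe set of Plin2 every treated group overlapped the controls. The differences there were 0.00, -0.07 and -0.11, each ± 0.10 (limma adjusted p = 0.990, 0.811 and 0.687).

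Cd36, a fatty acid transporter, read 0.16, 0.19 and -0.01 in control, -0.04, 0.02 and 0.01 with myclobutanil, -0.05, 0.06 and 0.02 with propiconazole, and 0.10, 0.09 and 0.25 with triadimefon. Each group overlapped the controls, and the differences were -0.12, -0.10 and 0.03, each ± 0.06 (limma adjusted p = 0.285, 0.467 and 0.860). A brighter probe set, assigned to both Cd36l1 and Cd36, read 0.95, 1.25 and 0.99 in control. Its propiconazole arrays, at 0.85, 0.74 and 0.90, lay below all controls, and the other groups overlapped them. The differences there were -0.11, -0.24 and 0.03, each ± 0.13 (limma adjusted p = 0.645, 0.427 and 0.952). Fabp1, the abundant liver fatty acid binding protein, stood at -0.20, -0.11 and -0.08, and Acsl1, the long-chain acyl-CoA synthetase, at 0.05, -0.14 and 0.00, with no call. Without myclobutanil replicate 02, Fabp1 stood at -0.30 (limma adjusted p = 0.0273) and Hadh at -0.67 (limma adjusted p = 0.0415). That fit kept myclobutanil replicate 01, the array that stood apart, and called 924 of all probe sets, against 395 with all arrays. Fabp1, Hadh and Plin2 were called with myclobutanil in no other setting.

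The last 3 members switch fuel use or are secreted. Pdk4, the kinase that shuts off pyruvate dehydrogenase in fasting, read 1.20, 1.41 and 1.44 in control, 1.75, 1.37 and 1.84 with myclobutanil, 1.73, 1.44 and 2.25 with propiconazole, and 0.91, 1.85 and 1.30 with triadimefon. Its propiconazole arrays lay just above the controls. The differences were 0.30, 0.46 and 0.00, each ± 0.24 (limma adjusted p = 0.488, 0.421 and 0.998). On a second, dimmer probe set of Pdk4 every treated group overlapped the controls. The differences there were -0.03, 0.27 and -0.09, each ± 0.15 (limma adjusted p = 0.913, 0.444 and 0.847).

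Angptl4, a secreted inhibitor of lipoprotein lipase, read 1.0, 1.34 and 1.46 in control, 1.12, 1.60 and 1.66 with myclobutanil, 2.15, 1.70 and 1.59 with propiconazole, and 1.38, 1.07 and 1.18 with triadimefon. Again the propiconazole arrays lay above all controls and the others overlapped them. The differences were 0.19, 0.55 and -0.06, each ± 0.18 (limma adjusted p = 0.554, 0.189 and 0.932). Fgf21, the fasting hormone of the liver, read -0.02, 0.05 and 0.33 in control, 0.16, -0.08 and 0.03 with myclobutanil, 0.02, 0.15 and 0.44 with propiconazole, and -0.12, 0.14 and 0.10 with triadimefon. All of its groups overlapped, and the differences were -0.09, 0.08 and -0.08, each ± 0.12 (limma adjusted p = 0.699, 0.812 and 0.825).

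Myclobutanil and propiconazole were given at the same dose and for the same time, so this 1 pair was compared directly; triadimefon was given at another dose and was not tested against them. Of the 36 members, 28 were lower with myclobutanil than with propiconazole and 8 higher, with a median difference of -0.16 against -0.01 over all probe sets. The split was 33 to 3 with median centring and 27 to 9 without further normalization. At an unadjusted p under 0.05 there were 5 members lower with myclobutanil (13.9%, against 5.26% of all probe sets) and 2 higher (5.56%, against 4.86%), and 0 were called. The lowest adjusted p was 0.381. All 3 myclobutanil arrays lay below all 3 propiconazole arrays in 3 members (8.33%, against 7.13% of all probe sets). The myclobutanil arrays lay above all propiconazole arrays in 1 member (2.78%, against 6.31%).

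On the chosen probe sets, all 10 mitochondrial beta-oxidation genes stood lower with myclobutanil than with propiconazole under each of the 3 scalings. The differences lay between -0.53 and -0.07. On further tested probe sets the signs were mixed, with Acaa2 at 0.06, Hadha at -0.03 and 0.03, and Hadh at -0.19. Of all probe sets, 46.9% stood higher with myclobutanil. Acadm, Hadha and Hadh, 3 of the 10, were lower at an unadjusted p under 0.05, against 5.26% of all probe sets. Without myclobutanil replicate 01, 9 of 10 stood lower, 4 of them at an unadjusted p under 0.05, against 3.77% of all probe sets. In that fit 48.0% of all probe sets stood higher with myclobutanil. With the GAPDH covariate 9 of 10 stood lower, 0 of them at an unadjusted p under 0.05, against 3.33% of all probe sets. The 10 genes are read from the same 6 livers, so their count is not a count of independent observations.

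Single differences between these compounds had wide intervals. Cpt2 stood at -0.37 ± 0.12 (95% interval -0.63 to -0.12, limma adjusted p = 0.381), Hadha at -0.53 ± 0.23 (-1.04 to -0.03, 0.487), Hadh at -0.45 ± 0.16 (-0.80 to -0.10, 0.442) and Acadm at -0.33 ± 0.12 (-0.60 to -0.06, 0.446). Ppara stood at -0.17 ± 0.07 (-0.32 to -0.03, limma adjusted p = 0.446). It was 1 of the 3 members whose myclobutanil arrays lay below all propiconazole arrays. Cyp4a1 was the member farthest in the other direction, at 0.27 ± 0.10 (0.05 to 0.49, limma adjusted p = 0.446). For Vnn1, Plin2 and Eci1 the differences were 0.04 (-0.30 to 0.38), 0.02 (-0.38 to 0.42) and -0.07 (-0.32 to 0.18), and differences of either sign lie within these intervals. The dimmer probe set of Cpt1a, noted after its values were seen, stood at -0.75 ± 0.18 (limma adjusted p = 0.286), and its myclobutanil arrays, at 0.34, 0.84 and 0.71, lay below all propiconazole arrays.

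**Figure D4:**
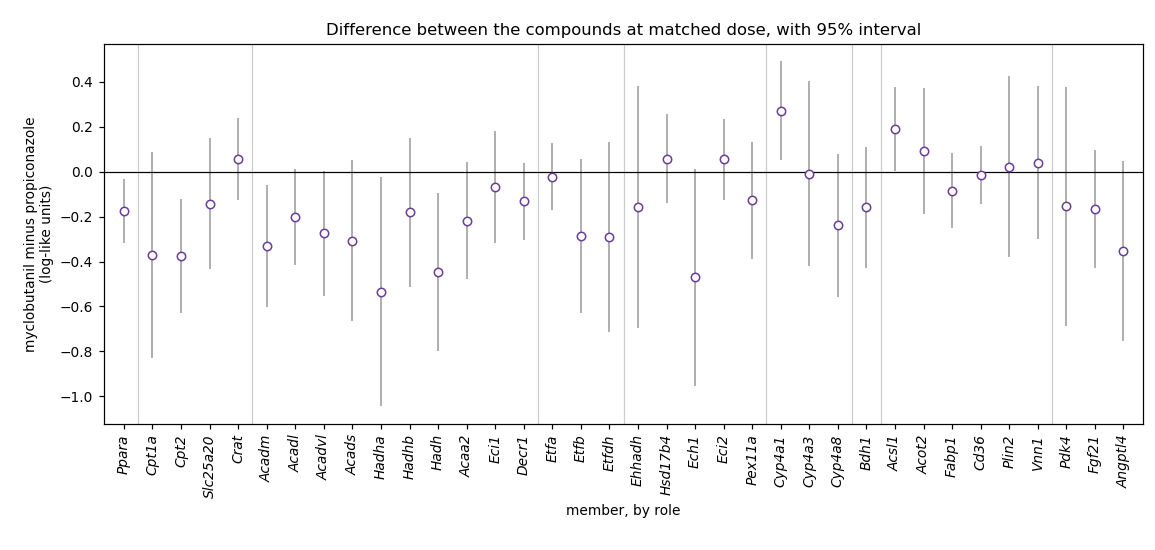
Myclobutanil minus propiconazole (log-like units, vertical axis) for the 36 tested members, ordered by role along the horizontal axis; circles are limma estimates, lines are 95% intervals and grey lines part the roles. The 10 beta-oxidation genes all lie below 0, from -0.53 to -0.07, and Cyp4a1 lies highest at 0.27.

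Several probe sets existed for 12 members, with 15 further probe sets of which 12 were tested. Their difference had the same sign as the chosen probe set in 8 of 12 for myclobutanil, 9 for propiconazole, 7 for triadimefon and 10 between the compounds at matched dose.

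Beyond the members, 109 other genes of the pathway were listed by role, of which 98 were tested: receptors and coactivators, other mitochondrial and peroxisomal genes, ketone and omega-oxidation genes, and genes of fatty acid handling. With myclobutanil 2 were called higher and 0 lower, with propiconazole 2 higher and 1 lower, with triadimefon 1 higher and 0 lower, and between the compounds at matched dose 0. As shares of the 98 these were 2.04%, 3.06%, 1.02% and 0%, against 1.82%, 1.43%, 0.769% and 0% of all probe sets, so that each share rests on at most 3 genes and nothing is read from it about the list.

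Plin3, a lipid droplet coat protein, read 0.87, 0.65 and 0.67 in control, 1.25, 1.13 and 1.10 with myclobutanil, 1.21, 1.30 and 1.34 with propiconazole, and 1.07, 1.29 and 1.04 with triadimefon. All treated arrays lay above all controls. It rose by 0.43 ± 0.09 with myclobutanil and 0.55 ± 0.09 with propiconazole (limma adjusted p = 0.0405 and 0.0170), and stood at 0.41 ± 0.09 with triadimefon (limma adjusted p = 0.0688). Pnpla2, the triglyceride lipase of the droplets, read 0.67, 0.57 and 0.58 in control and 1.34, 1.28 and 0.86 with propiconazole, a rise of 0.56 ± 0.10 (limma adjusted p = 0.0299). Acsl3, an acyl-CoA synthetase of droplets, read 0.24, 0.34 and 0.11 in control and 1.15, 0.75 and 0.86 with myclobutanil, a rise of 0.69 ± 0.13 (limma adjusted p = 0.0344).

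Lpin2, a phosphatidate phosphatase of triglyceride synthesis, read 0.84, 0.88 and 0.86 in control and 1.73, 1.85 and 1.55 with triadimefon, a rise of 0.85 ± 0.12 (limma adjusted p = 0.0122). Ppard, the delta relative of Ppara, read 0.74, 0.64 and 0.68 in control and 0.42, 0.38 and 0.47 with propiconazole, and fell by 0.26 ± 0.05 (limma adjusted p = 0.0433). The treated arrays of each of these genes cleared all controls in the comparison named. With 1 of 6 arrays left out in turn, the call held in 1 fit for Plin3 with myclobutanil, 2 for Plin3 with propiconazole, 1 for Pnpla2, 2 for Acsl3, 1 for Lpin2 and 0 for Ppard, the adjusted p reaching 0.163 for Plin3 with myclobutanil, 0.0950 for Plin3 with propiconazole, 0.131 for Pnpla2, 0.151 for Acsl3, 0.0756 for Lpin2 and 0.147 for Ppard. Of the 9 other settings run with all 3 arrays of each compared group, the call held in 9 for Plin3 with propiconazole, 9 for Lpin2, 7 for Acsl3, 6 for Pnpla2, 6 for Ppard and 5 for Plin3 with myclobutanil. With the replicate number as a block the limma adjusted p was 0.0764 for Plin3 with myclobutanil, 0.0928 for Ppard, 0.0507 for Pnpla2 and 0.0676 for Acsl3. With median centring it was 0.0568 for Plin3 with myclobutanil and 0.130 for Ppard, and with dim probe sets kept 0.0502 and 0.0578. From the 6 arrays of the compared groups it was 0.181 for Plin3 with myclobutanil, 0.0612 for Pnpla2 and 0.133 for Acsl3, and with the GAPDH covariate 0.0739 for Pnpla2.

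Markers of Kupffer cells, the resident macrophages of liver, were lower with myclobutanil: 5 of 9 tested were called (Clec4f, Cd5l, C1qa, C1qc and Adgre1). Their mean level relative to control ran from -0.95 to -0.37 on the myclobutanil arrays, against -0.09 to 0.07 in control, -0.15 to -0.02 with propiconazole and -0.17 to -0.02 with triadimefon. Hepatocyte markers ran from -0.15 to 0.12 on the myclobutanil arrays, from 0.04 to 0.13 with propiconazole and from -0.01 to 0.07 with triadimefon. Of 5 endothelial markers Kdr fell by 0.55 with myclobutanil and fell by 0.64 with propiconazole (limma adjusted p = 0.0407 and 0.0268), and the mean of the 5 ran from -0.19 to -0.10 on the myclobutanil arrays, from -0.27 to -0.14 with propiconazole and from -0.09 to -0.03 with triadimefon, against -0.06 to 0.06 in control. Of 6 stellate cell markers, Lrat fell by 0.36 with myclobutanil and by 0.40 with propiconazole (limma adjusted p = 0.0322 and 0.0231), and Rgs5 rose by 0.46 with myclobutanil (limma adjusted p = 0.0344). The hepatocyte marker Apoa1 rose by 0.49 with propiconazole (limma adjusted p = 0.0278). With triadimefon 0 of these markers were called. The adipocyte markers Adipoq and Plin1 and the muscle markers Ckm, Acta1 and Myl1 lay below the brightness filter. Of the 3 adipocyte markers tested, Cfd fell by 0.56 with myclobutanil (limma adjusted p = 0.00872), while Fabp4, at 0.50 (limma adjusted p = 0.143), and Lep were not called. The muscle marker tested, Myh6, was not called. The part of these shifts in the members' values was not tested.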

How the data were processed

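Liver RNA of 12 rats was measured on 12 arrays, 1 rat per array, grouped by the sample titles. The authors deposited 1 log-like score per probe set; its summary method, normalization, software and log base were not given in the sources used here. No 2 arrays held identical values. The arrays were quantile normalized after leaving out 57 control probe sets, and the 30% of the other 31042 with the lowest mean were left out as dim, which left 21729. A platform annotation of probe sets, which can be old, named the genes (1 gene for 20826 probe sets, several for 436, none for 9780), and symbols of 20758 were updated through a RefSeq table of the GRCr8 assembly, the build of the promoter windows. The deposited scores carry no coordinates.

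limma 3.58.1 in R 4.3.3 fitted the 4 group means (8 residual degrees of freedom, variances moderated with an intensity trend), with two-sided tests and Benjamini-Hochberg adjustment over 21729 probe sets per comparison. The fit was also run on simulated data, with independent noise in each probe set and the same spread on every array. That setting lacks the uneven spread of the groups seen here, so nothing is read from it about the calls. Figures were drawn with matplotlib 3.10.9 and pandas 2.3.3 under Python 3.11.15. The number of arrays limits the precision: the median 95% interval reached 0.274 to either side over the members.

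The members, gene lists and tests were chosen with earlier results of these data known. Values on every array are given for members past the adjusted test, for those whose treated arrays lie beyond all controls with all compounds, and for Ppara, Cpt1a, Cpt2, Ehhadh, Acaa1a, Cyp4a1, Cyp4a3, Cyp4a8, Bdh1, Pdk4, Fgf21, Angptl4, Plin2 and Cd36; of the other pathway genes those past the test are named, up to 6 per comparison. Other values were chosen after they were seen. Replicate numbers are shared by the groups, but deviations from the group means correlated from -0.494 to 0.495 between same-numbered arrays, so the numbers were not taken to pair them. Alternatives were other scalings, filters, variance models, samples and probe sets, and, added after the data were seen, a GAPDH covariate and the counts without myclobutanil replicate 01.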

Additional observations from a re-analysis of the deposited data

How the results depend on the processing

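Of 2200 single differences of members under alternative settings, 2093 stayed close to the first value on the same side of the threshold. Another 79 moved by more than the spread between replicates without a call, 19 gained a call and 9 lost one (all Cpt2 with propiconazole). A reversal was counted only where either fit made a call, and 0 were found. Signs of differences without a call did change. The split for myclobutanil went from 15 above and 21 below 0 to 10 and 26 with median centring. The number of members called for myclobutanil was 0, and became 1 without the filter on dim probe sets, 5 with array weights and 2 with the second probe set of a gene. For propiconazole it was 1, and became 0 with median centring, without the filter and with the GAPDH covariate, 2 without the intensity trend, 4 with array weights and 3 from the 6 arrays of the compared groups alone. For triadimefon it was 0, and became 1 (Etfdh) from 6 arrays. For the F test it was 0, and became 1 without the filter and 6 with array weights. Between myclobutanil and propiconazole it was 0 under all of the settings run.

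Over all probe sets, the calls numbered 395 for myclobutanil, 311 for propiconazole, 167 for triadimefon, 0 between myclobutanil and propiconazole, and 233 by the F test. With array weights these became 1668, 1313, 1028, 343 and 1751. From 6 arrays they were 9 for myclobutanil, 645 for propiconazole and 609 for triadimefon. The GAPDH covariate gave 676 for myclobutanil and 194 for propiconazole. Between myclobutanil and propiconazole there was 1 call with median centring and 1 without further normalization, 2 with a 50% filter and 5 without the intensity trend. The causes of these moves were not tested.

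With 1 array left out in turn, members called ran from 0 to 3 for myclobutanil, 0 to 1 for propiconazole, 0 to 0 for triadimefon, 0 to 0 between myclobutanil and propiconazole, and 0 to 3 by the F test. All calls ran from 30 to 924, 36 to 170, 6 to 60, 0 to 29 and 8 to 689. The pairing of arrays by replicate number was not borne out by the correlations of same-numbered arrays, whose median was -0.0265; with a replicate block, all calls numbered 180 for myclobutanil, 121 for propiconazole, 87 for triadimefon and 59 by the F test, and members called for propiconazole numbered 0.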
